A study of Mus musculus with 4 samples.

Results

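Mgp, Ucma, Enpp1, Ank and Alpl regulate where calcium phosphate mineral forms in cartilage and bone, and their UMI counts (numbers of distinct transcript molecules) were read here in mouse tail intervertebral discs, with and without a needle puncture. The members were the rows of the count matrices with these 5 symbols, 5 of 32285 genes, and all 5 were detected in all 4 libraries. The rule names symbols and uses no measured value, although earlier results of these data were known when it was written.

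Mgp, the matrix Gla protein, and Ucma, the upper zone of growth plate and cartilage matrix associated protein, are small secreted proteins whose glutamate residues are carboxylated by a vitamin K dependent enzyme and which bind calcium; loss of Mgp in mice calcifies arteries and cartilage. Enpp1 is an ectoenzyme that makes inorganic pyrophosphate from nucleotide triphosphates, and Ank is a membrane protein needed for the release of ATP and pyrophosphate from cells. Pyrophosphate blocks the growth of hydroxyapatite, and Alpl, the tissue-nonspecific alkaline phosphatase, cleaves it to phosphate and so permits mineral to form. Mice that lack Enpp1 or functional Ank mineralize joints and spinal ligaments, and the disc lies between the cartilage endplates and bone of adjacent vertebrae.

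The series asked how disc cells differ after puncture. The animals were wildtype C57BL/6 females aged 12 weeks. Injured discs (CC5/6 to CC9/10) were punctured on both sides with a 30G needle and taken after 7 days; control discs (CC12/13 to CC16/17) came unpunctured from the same tails, so tail level and injury cannot be told apart. Discs of 6 mice (30 discs per group) were pooled, and the cells were frozen, thawed, sorted as viable with DAPI and captured in droplets, giving 1 control and 1 injured library in each of 2 rounds. A library is therefore a pool of animals, and with 2 libraries per group no exact permutation test can go below p = 0.33.

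At a minimum of 250 detected genes there were 378 and 856 control cells in rounds 1 and 2 and 778 and 1834 injured cells, with median UMIs of 1061.5 and 836 against 7033.5 and 4635. The control matrix of round 1 listed 444 barcodes only, while the others also listed empty droplets. Of its 378 cells, 55 had the same barcode in injured round 1 with similar UMIs there and 104 with at least 29.2 times as many, so results were also computed on the 219 others. Clusters were built without 47 mineralization genes, the members among them, and named from markers. Clusters 1, 2, 6 and 8 were inner annulus or cartilage-like (the inner class), and clusters 7, 9, 11 and 15 were outer annulus or fibroblast-like (the outer class). Cluster 3 (M1ap, Fmod, Spp1) had equally many markers of both classes and was kept as unresolved, and cluster 13 was nucleus pulposus-like. These were the 2721 disc cells (272 and 378 in control, 523 and 1548 in injured). Clusters 4, 5, 12, 14 and 18 stayed unnamed. Of 8 osteoblast or osteocyte markers, 4 to 6 were detected in the disc cells of each library. Their summed level, mostly Ibsp (bone sialoprotein), was 710 UMIs per 1000000 UMIs of the population (CPM) in control round 1, 50.4 in control round 2, 24.0 in injured round 1 and 10.4 in injured round 2.

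Sequences immediately before the transcription start are shown because Ucma and Alpl were low together in injured disc cells while Ank was high. They are the 150 bases before each RefSeq start on GRCm38.p6, written 5′ to 3′ on the gene's own strand, for the 4 members the RefSeq table matched. Capitals mark matches, on either strand, to the RUNX core ACCACA, the CCAAT box CCAAT, the GC box GGGCGG, the AP-1 site TGANTCA or the TATA box TATAAA.
Ucma, chr2:4975972-4976121, plus strand: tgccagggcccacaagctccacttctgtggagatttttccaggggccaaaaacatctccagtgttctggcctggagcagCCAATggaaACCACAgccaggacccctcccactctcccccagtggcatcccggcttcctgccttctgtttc
Alpl, first start, chr4:137796385-137796534, minus strand: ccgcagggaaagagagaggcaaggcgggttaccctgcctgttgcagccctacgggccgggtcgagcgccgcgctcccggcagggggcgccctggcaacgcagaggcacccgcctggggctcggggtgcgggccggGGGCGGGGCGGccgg
Alpl, second start, chr4:137766476-137766625, minus strand: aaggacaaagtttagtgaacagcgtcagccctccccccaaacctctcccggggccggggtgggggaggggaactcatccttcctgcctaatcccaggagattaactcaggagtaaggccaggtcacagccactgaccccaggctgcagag
Enpp1, chr10:24712160-24712309, minus strand: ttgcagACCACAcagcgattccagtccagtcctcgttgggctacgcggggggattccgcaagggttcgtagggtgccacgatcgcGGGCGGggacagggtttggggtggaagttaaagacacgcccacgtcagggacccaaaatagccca
Ank, chr15:27466527-27466676, plus strand: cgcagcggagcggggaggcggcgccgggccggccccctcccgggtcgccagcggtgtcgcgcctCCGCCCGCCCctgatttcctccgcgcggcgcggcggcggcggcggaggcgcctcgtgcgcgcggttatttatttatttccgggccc
The Ucma window held ACCACA starting 62 bases before the start and CCAAT starting 71 bases before it. Among all promoters in the table, 8.40% held ACCACA and 24.5% held CCAAT in the same window. Enpp1 also held ACCACA, 144 bases before its start, and a GC box at 65 bases. The first Alpl start had a pair of overlapping GC boxes at 15 and 10 bases, and Ank had an overlapping pair at 86 and 82 bases. A GC box was in 28.6% of all promoters. GC content was 78.7% in the windows of Ank and the first Alpl start against 58.7% in that of Ucma, 61.3% in that of Enpp1 and 60.0% in that of the second Alpl start. The median over all promoters was 54.0%.

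The genes lie apart in the genome (GRCm38, GENCODE vM21). Mgp (ENSMUSG00000030218) is at chr6:136872435-136875823 on the minus strand, Ucma (ENSMUSG00000026668) at chr2:4976122-4985748 on the plus strand, and Enpp1 (ENSMUSG00000037370) at chr10:24637914-24712159 on the minus strand. Ank (ENSMUSG00000022265) is at chr15:27466677-27594909 on the plus strand and Alpl (ENSMUSG00000028766) at chr4:137741733-137796384 on the minus strand. Ank alone overlaps other annotated genes (Otulin on the opposite strand, and Tiaf2, B230362B09Rik and Mir7117 on its own), and how reads shared with them were assigned is not given in the sources used here.

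Over the disc cells as a whole, Ucma and Alpl were lower in both injured libraries than in both controls, Mgp and Ank were higher in both, and Enpp1 overlapped. Groups that did not overlap were common, at 37% of the 11212 genes tested, against 4 of the 5 members. In the test with injury as the only term (edgeR's quasi-likelihood test, adjusted over all genes tested), 0 of 5 members were called at an adjusted p under 0.05, where 0.0178% of all genes were called (0.117% over all cells, likewise with 0 members). At an unadjusted p under 0.05, 4 of 5 passed, where 7.59% of all genes did. With round as a block, which fits the shared animals of each round, 3 of 5 were called (Ucma and Alpl lower, Mgp higher), where 4.13% of all genes were called. Without the shared barcodes as well, 2 of 5 were called (Ucma and Alpl), where 2.14% were. The blocked fit has 1 residual degree of freedom per gene and takes most of its estimate of spread from the other genes.

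**Figure D1:**
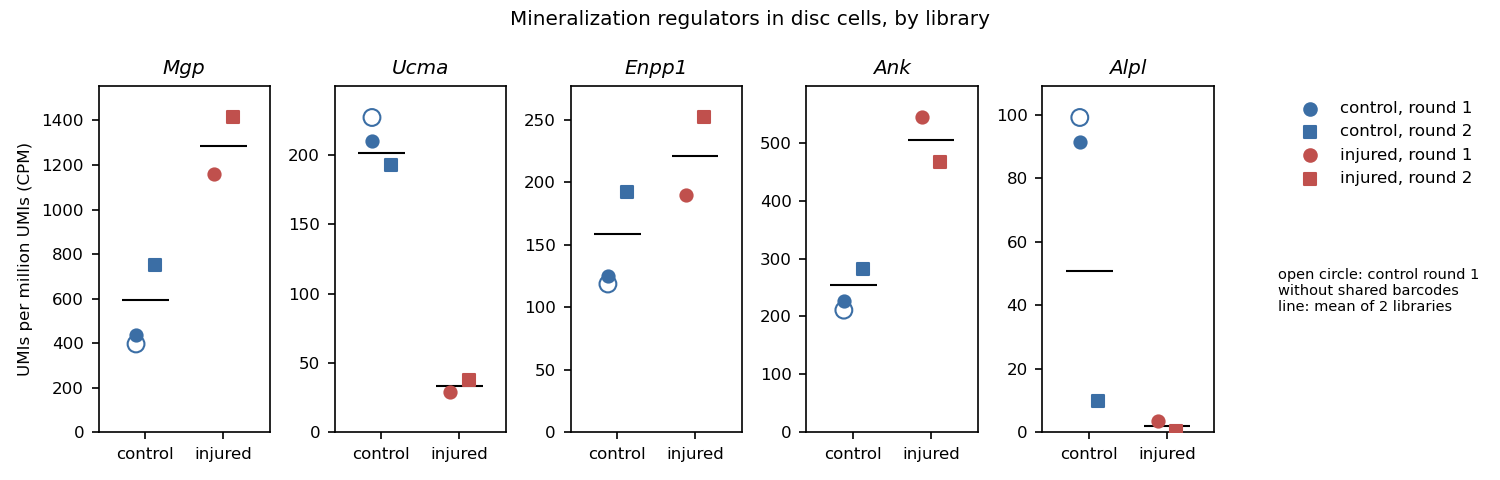
CPM of the 5 genes in disc cells, by library, each panel from 0. Blue is control, red injured, circles round 1, squares round 2, black lines the means of 2 libraries, and open circles control round 1 without shared barcodes. Ucma and Alpl sit lower and Mgp and Ank higher in both injured libraries, while the 2 groups of Enpp1 overlap.

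Mgp, the first of the Gla proteins, had 437 CPM in disc cells of control round 1 and 753 CPM in control round 2, against 1160 in injured round 1 and 1413 in injured round 2. Both injured libraries were above both controls, at 595 ± 223 against 1286 ± 179 CPM (mean ± SD, n = 2 each), 2.65-fold in round 1 and 1.88-fold in round 2. The log2 difference in Mgp was 1.19 ± 0.40 (SE) with an adjusted p of 0.590 by edgeR, and 1.22 ± 0.30 with an adjusted p of 0.0473 with the block. Without the shared barcodes, Mgp in control round 1 was at 397 CPM and the blocked adjusted p was 0.0815 (edgeR).

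Mgp moved in opposite directions in the 2 annulus classes. In inner annulus or cartilage-like cells it was at 284 and 629 CPM in control rounds 1 and 2 and at 1182 and 2184 CPM in injured rounds 1 and 2. In outer annulus or fibroblast-like cells it was at 999.6 and 1059 CPM in control against 451 and 428 CPM in injured. Neither class had overlapping groups, and Mgp was higher in the injured inner class and lower in the injured outer class in both rounds. The share of all genes without overlap was not counted within a class, and was 37% over disc cells. The outer class had 36 and 52 cells in control and 33 and 508 in injured rounds 1 and 2. The log2 differences were 2.01 ± 0.53 in the inner class and -1.28 ± 0.42 in the outer class, with adjusted p of 0.265 and 0.146 (edgeR). Without the block 0% of 10293 genes were called in the inner class, 824 at an unadjusted p under 0.05, and 2% of 5045 in the outer class. DESeq2 called Mgp in the inner class (adjusted p 0.0142), where it called 0.913% of all genes. With the block, Mgp was called in both (adjusted p 3.4e-06 and 0.00818, edgeR), where 8.4% and 10.4% of all genes were called. The same 2 calls stood without shared barcodes (adjusted p 0.00785 and 0.00724, edgeR with the block), where 3.64% and 10.6% of all genes were called.

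The difference between these 2 changes was itself tested. For Mgp the class by injury term was -3.30 ± 0.47 on the log2 scale (edgeR, adjusted p 0.0134 over 9106 genes, with library as a term). Mgp was the only one of the 5 members called, where 0.22% of all genes were called. The term kept its direction under every alternative run, but at under 10% mitochondrial UMIs per cell the adjusted p was 0.0633, and with classes set by marker score the term was -1.26 with an adjusted p of 1. For Ucma it was 2.19 ± 0.93 (adjusted p 0.583), for Ank -1.16 ± 0.43 (0.481) and for Enpp1 0.41 ± 0.41 (0.922). Alpl had 1 UMI in the outer class of all libraries together, which leaves nothing to compare there.

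The clusters that made up each class differed between the groups. Cluster 2 (Cnmd, Grem1, Sfrp5) held 97 of 193 inner-class cells in control round 1 and 213 of 244 in control round 2. In injured round 1, clusters 6 (Il11, Npy) and 8 (Mmp12, Mmp3) held 176 and 182 of 414, and in injured round 2 cluster 1 (Saa1, Chil1, Lcn2) held 638 of 747. In cluster 2 alone Mgp did not separate the groups, at 230 and 441 CPM in control against 247 and 266 CPM in injured (log2 difference -0.36 ± 0.51, edgeR, adjusted p 0.9997). Cluster 1 was high in Mgp in a control library too, at 1465 CPM in the 27 cells of control round 2, against 522 in the 23 cells of injured round 1 and 2048 in the 638 cells of injured round 2. Cluster 6 had 769 CPM in its 85 cells of control round 1, of which 5 remained without shared barcodes and held 0 Mgp UMIs, and 1796 CPM in its 176 cells of injured round 1. In injured round 2, 18 cells of cluster 6 held 1429 of the 9506 Mgp UMIs of the inner class. In the outer class, cluster 9 (Myoc, Angptl7) held 28 of 36 control cells in round 1 and 46 of 52 in round 2, and in injured round 2 cluster 7 (Aspn, Cthrc1, Postn) held 250 of 508. Cluster 9 had 825 and 857 CPM of Mgp in control, 1025 in the 75 cells of injured round 2 and 179 in the 16 cells of injured round 1, so it did not separate the groups. Cluster 7 had 284 CPM in injured round 2. The part of this shift in cluster makeup in the changes of Mgp was not tested.

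**Figure D2:**
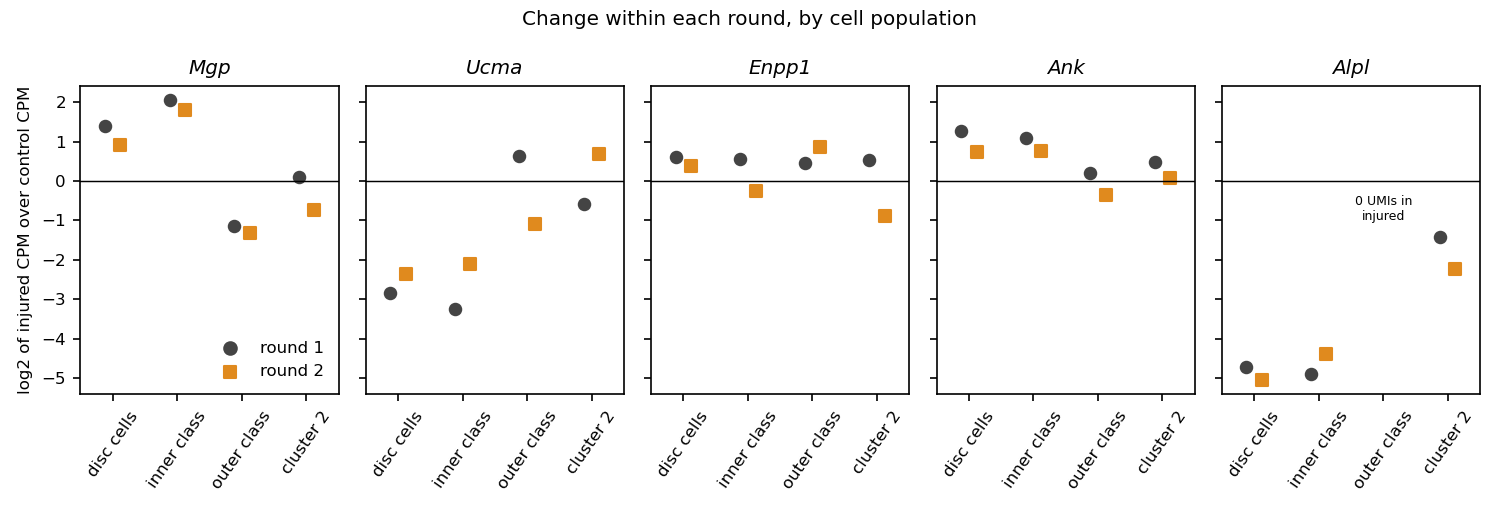
log2 of injured over control CPM within each round, for disc cells, the inner class, the outer class and cluster 2; black circles are round 1, orange squares round 2, and the line marks no difference. Mgp is above 0 in the inner and below 0 in the outer class in both rounds, and in cluster 2 alone Mgp, Ucma and Enpp1 have opposite signs in the 2 rounds.

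Mgp was also abundant outside the named disc classes. Cluster 5 (Ccl11, Dpep1), an unnamed cluster whose control round 1 barcodes were mostly shared with injured round 1, had 5035 CPM of Mgp in its 267 cells of control round 2 and 3094 CPM in its 28 cells of injured round 1. The mural-like cells of cluster 17 had 4811 and 4194 CPM in the 16 and 19 cells of injured rounds 1 and 2. Over all cells, Mgp was at 447 CPM in control and 1129 CPM in injured cells of round 1, a ratio of 2.52. In round 2 it was at 1094 and 1388 CPM, a ratio of 1.27, and the blocked adjusted p was 0.124 (edgeR). The log2 difference without the block was 0.79, between 0.31 without control round 1 and 1.55 without control round 2. Macrophage-like cells, which should lack Mgp, had 11.2 and 53.5 CPM in the injured libraries. In each library the tenth of cells with the most Mgp held 77.0% to 80.9% of its UMIs in cells. Mgp was unevenly spread between cells in control and injured libraries alike.

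Ucma, the other Gla protein, marks immature chondrocytes and had its levels in few clusters. In disc cells it was at 210 and 193 CPM in control rounds 1 and 2 and at 29.0 and 37.8 CPM in injured rounds 1 and 2. The control libraries were 7.24-fold and 5.09-fold above the injured ones of their round. The groups were far apart and did not overlap. The log2 difference of Ucma was -2.52 ± 0.37 (edgeR, adjusted p 0.152), and -2.53 ± 0.27 with the block (adjusted p 5.9e-04). Ucma was called as well with DESeq2 (adjusted p 1.2e-05), with which 1.08% of all genes were called. It remained called with the block and without shared barcodes (adjusted p 0.0100, edgeR). In the inner class the levels were 268 and 267 CPM in control against 28.1 and 62.0 CPM in injured, called with the block (-2.55 ± 0.30, edgeR, adjusted p 5.6e-15). In the outer class, at 11 to 56 UMIs per library, Ucma was higher in injured round 1 and lower in injured round 2 than in its control. The higher level in round 1 rested on 1 cell, which held 24 of the 35 outer-class UMIs of injured round 1.

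In the controls most Ucma UMIs were in cluster 2 (136 of 202 and 329 of 351 in rounds 1 and 2), and in the injured libraries a smaller share was (45 of 180 and 148 of 380). Cluster 2 was led by Cnmd, the anti-angiogenic chondromodulin, Grem1, a BMP antagonist, and Sfrp5, a secreted WNT inhibitor. Ucma was among the 10 leading genes of that cluster, although it took no part in the clustering. Cluster 2 made up 35.7% and 56.3% of disc cells in control rounds 1 and 2 and 6.31% and 4.84% in injured rounds 1 and 2. Without shared barcodes its share in control round 1 was 56.4%. Within it, Ucma was at 243 CPM in control round 1 (95% Poisson interval 204 to 287), 334 in control round 2 (299 to 372), 161 in injured round 1 (118 to 216) and 540 in injured round 2 (457 to 635). The injured libraries were thus the lowest and the highest, and the log2 difference of Ucma in cluster 2 was 0.35 ± 0.63 (edgeR, adjusted p 0.9997) or 0.14 ± 0.38 with the block (adjusted p 0.998). In cluster 2, 0 of 5 members were called with or without the block, where 0.93% and 0% of 5376 genes were. In all other disc cells together, Ucma was at 22.7, 23.2 and 23.7 CPM in injured round 1, control round 2 and injured round 2. Control round 1 stood apart there at 164 CPM, with 64 UMIs, of which 31 were in cluster 6, nearly all of them in 1 cell with 29. Without that cell it was at 91.9 CPM, and without shared barcodes at 199 CPM. With the highest cell of each library left out, the injured libraries were at 18.7 and 22.5 CPM in rounds 1 and 2 and control round 2 was at 12.3 CPM. Outside cluster 2, control was thus above injured in round 1 and not in round 2. The part of the cluster 2 share in the lower Ucma of injured disc cells was not tested, and whether fewer such cells were present or fewer were captured cannot be told apart.

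**Figure D3:**
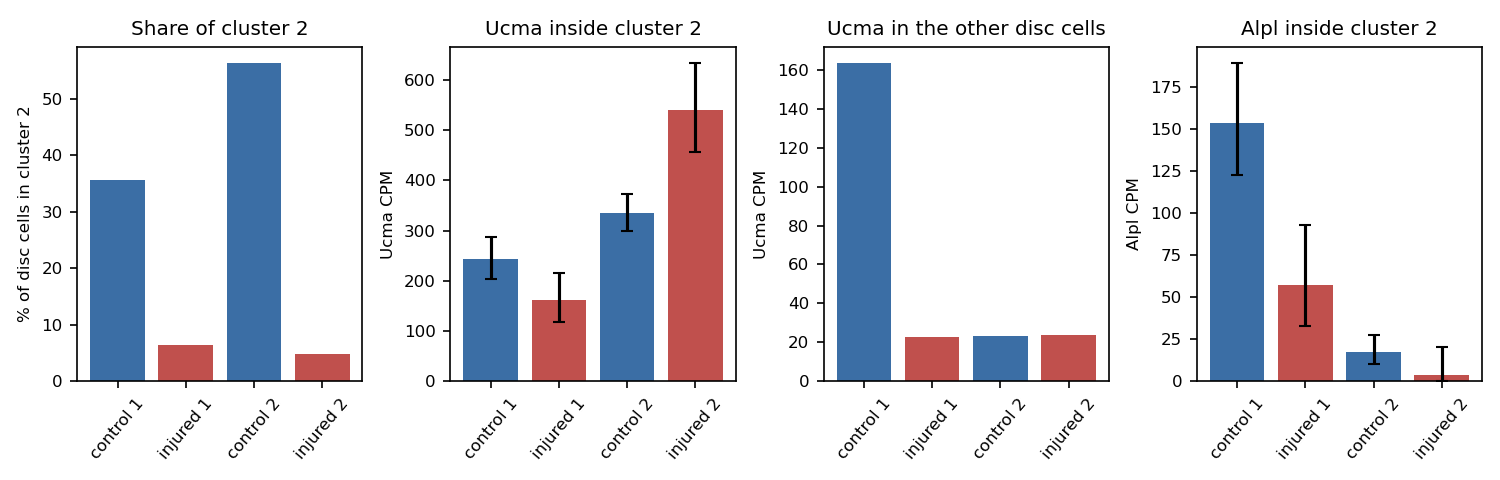
Bars from 0 by library (blue control, red injured; 1 and 2 are the rounds): percent of disc cells in cluster 2, Ucma CPM inside cluster 2, Ucma CPM in all other disc cells, and Alpl CPM inside cluster 2; error bars are 95% Poisson intervals. The share of cluster 2 is 35.7% and 56.3% in control and 6.31% and 4.84% in injured, while Ucma inside it has no common direction.

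Among the pyrophosphate genes, Enpp1, the pyrophosphate producer, had groups that overlapped in disc cells. Its levels in disc cells were 125 and 192 CPM in control rounds 1 and 2 and 189 and 252 CPM in injured rounds 1 and 2, so control round 2 lay above injured round 1. The ratio of injured to control Enpp1 was 1.51 in round 1 and 1.31 in round 2. The log2 difference was 0.55 ± 0.38 (edgeR, adjusted p 0.818), and 0.56 ± 0.25 with the block (adjusted p 0.245). In the inner class Enpp1 was at 123 and 206 CPM in control against 181 and 171 CPM in injured, and in the outer class at 175 and 185 CPM against 242 and 334 CPM. The outer groups did not overlap, yet Enpp1 was not called there without the block (0.65 ± 0.44, adjusted p 0.612) or with it (adjusted p 0.372, edgeR). Its highest levels were in injured fibroblast-like cells of round 2, at 358 CPM in cluster 7 and 371 CPM in the dividing cells of cluster 15. The fibroblast-like cluster 9 was at 195, 185 and 192 CPM in control round 1, control round 2 and injured round 2, and at 128 CPM in the 16 cells of injured round 1. Macrophage-like cells had 5.61 and 6.68 CPM of Enpp1, and the 29 and 66 nucleus pulposus-like cells of control rounds 1 and 2 had 0 Enpp1 UMIs, which allows up to 58.9 and 35.9 CPM (upper 95% Poisson limits).

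Ank, which serves pyrophosphate release, was at 227 and 281 CPM in control disc cells and at 543 and 466 CPM in injured disc cells of rounds 1 and 2. Both injured libraries were above both controls, 2.39-fold and 1.66-fold. The log2 difference of Ank was 1.05 ± 0.34 (edgeR, adjusted p 0.575), and 1.05 ± 0.27 with the block (adjusted p 0.0562). Over all cells (210 and 255 CPM against 497 and 448 CPM) the blocked adjusted p was 0.0304, and in the inner class it was 0.0189, so Ank was called with the block in these 2 populations, where 6.14% and 8.4% of all genes were called. Both calls were lost without shared barcodes, although the log2 differences were no smaller, at 1.11 and 1.09 against 1.09 and 1.03 (adjusted p 0.0755 and 0.0780, edgeR with the block), where 2.04% and 3.64% of all genes were called. In the inner class the levels were 258 and 321 CPM in control against 548 and 547 CPM in injured.

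By cluster, Ank was at 674 and 802 CPM in cluster 3 in injured rounds 1 and 2. In cluster 1 it was at 816 CPM in control round 2 and at 538 and 568 CPM in injured rounds 1 and 2. Clusters 6 and 8 were at 597 and 536 CPM in injured round 1, near cluster 1. In cluster 1 the 27 cells of control round 2 were above the injured ones, and control round 1 had only 2 cells there. In cluster 6 the order was the other way, with 378 CPM in the 85 cells of control round 1 (194 CPM in the 5 without shared barcodes). Cluster 2 had 234 and 197 CPM in control against 329 and 208 CPM in injured (0.34 ± 0.47, edgeR, adjusted p 0.9997). The fibroblast-like clusters 7 and 15 had 86.7 and 149 CPM in injured round 2. Ank was lower in the outer than in the inner class across the 4 libraries, by -1.25 ± 0.29 on the log2 scale (edgeR with library as a term, adjusted p 0.0150), where 12.7% of all genes were called. That call was lost without either injured library (adjusted p up to 0.105) and with coarser clusters, where the difference was -0.49. These classes were drawn from other genes of the same cells, so the 2 sides are not independent of the clustering.

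Alpl, the phosphatase that removes pyrophosphate, was the rarest of the 5 in counts. Disc cells held 87 Alpl UMIs in control round 1 and 18 in control round 2, against 21 in injured round 1 and 3 in injured round 2. These are 91.4, 9.97, 3.45 and 0.30 CPM. Both controls were above both injured libraries, but the controls differed from each other by more than control round 2 differed from injured round 1. Control was 26.5-fold above injured in round 1 (95% interval of the counts 16.3 to 45.0) and 33.3-fold in round 2 (9.72 to 176). The log2 difference of Alpl was -4.79 ± 1.30 (edgeR, adjusted p 0.442), and -4.74 ± 0.39 with the block (adjusted p 8.0e-05). It was called with the block without shared barcodes too (-4.84, edgeR, adjusted p 0.00299). Single libraries moved the value: it was -2.37 without control round 1, -5.66 without control round 2, -7.15 without injured round 1 and -3.77 without injured round 2. Each of these fits left 1 library in an arm, so only the sizes are given. DESeq2 without the block did not call Alpl (adjusted p 0.337).

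Alpl was nearly confined to cluster 2, which held 120 of the 133 Alpl UMIs in cells. There the counts were 86 and 17 in control rounds 1 and 2 and 16 and 1 in injured rounds 1 and 2, or 153, 17.3, 57.3 and 3.65 CPM. Injured round 1 was above control round 2, so the groups overlapped inside cluster 2, but 1 cell decided this. The control level was 2.68-fold the injured level in round 1 (95% interval of the counts 1.56 to 4.90) and 4.73-fold in round 2 (0.741 to 198). The log2 difference of Alpl was -1.42 ± 1.05 (edgeR, adjusted p 0.9997), and -1.53 ± 0.50 with the block (adjusted p 0.145). Few cells carried these counts. One cell held 24 of the 89 Alpl UMIs of control round 1, and another held 13 of the 21 of injured round 1. Without the highest cell of each library, cluster 2 was at 112 and 15.3 CPM in control against 11.03 CPM and 0 UMIs in injured, and the groups did not overlap. In the outer class Alpl had 1 UMI in control round 1 and 0 elsewhere, against 86 and 18 in control and 21 and 3 in injured inner-class cells.

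Cells with Alpl in cluster 2 also held bone matrix transcripts in control round 1. There the 20 cells with an Alpl UMI had 654 UMIs of Ibsp, bone sialoprotein, in 10 cells (4885 CPM), against 4 UMIs (9.38 CPM) in the 77 cells without one, at similar depth (median 4616 and 4178 UMIs). In control round 2 the 13 cells with Alpl had 11 Ibsp UMIs and the other 200 had 36, or 219 and 38.5 CPM. In injured round 1 the 3 cells with Alpl had 2. Mgp ran the other way, at 52.3 against 286 CPM in control round 1 and 0 UMIs in the Alpl cells against 465 CPM in the others in control round 2. In control round 1 these were 7 UMIs in 3 of 20 cells against 122 UMIs in 16 of 77. The shares of cells with Mgp thus differed less there than the CPM. Spp1, osteopontin, was high in both kinds of cell, at 18724 and 14422 CPM in control round 1. In the Alpl cells of control round 1, Sp7, an osteoblast transcription factor, had 1 UMI and Bglap, osteocalcin, had 0. Runx2, which acts upstream of Sp7, had 6 UMIs in the cells with Alpl and 4 in those without (44.8 and 9.38 CPM), and in injured round 1 it had 5 and 3 (227 and 11.7 CPM). Mmp13, a collagenase of hypertrophic cartilage, was at 232 against 61.0 CPM in control round 1, with 31 UMIs in 2 cells against 26 in 4. Mmp13 had 0 UMIs in both kinds of cell in injured round 1 and control round 2. Of the other bone matrix and mineralizing chondrocyte genes, Col10a1 was at 7.47 against 18.8 CPM in control round 1. Fam20c was at 14.9 against 25.8 CPM there. Pth1r and Phex had 0 UMIs in these Alpl cells and 2 each in the others, and Dmp1 had 1 and 0. In injured round 1 Col10a1, Fam20c and Pth1r were higher in the Alpl cells, at 1 to 6 UMIs. The osteoblast or osteocyte list summed to 1183 CPM in cluster 2 in control round 1, 52.8 in control round 2, 10.7 in injured round 1 and 21.9 in injured round 2. Ibsp alone made up 1174 and 47.7 CPM of the 2 control sums, so the other 7 markers added little. The part of these markers in the Alpl difference was not tested.

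Many Alpl transcripts lay outside the cells. In the 3 matrices that list empty droplets, barcodes under 250 genes held 94 of 115 Alpl UMIs in injured round 1, 93 of 112 in control round 2 and 29 of 33 in injured round 2. These shares, 81.7%, 83.0% and 87.9%, compare with 24.8%, 78.2% and 37.8% of the UMIs of all genes. For Ank in the same libraries the shares were 3.24%, 30.1% and 6.33%, below those of all genes. Counted over whole matrices, Alpl was at 11.3 CPM in control round 2 against 1.94 in injured round 2. In round 1 it was at 79.9 CPM in control, a matrix with listed cells only, against 12.9 in injured. Control was above injured in both rounds on this scale too.

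**Figure D4:**
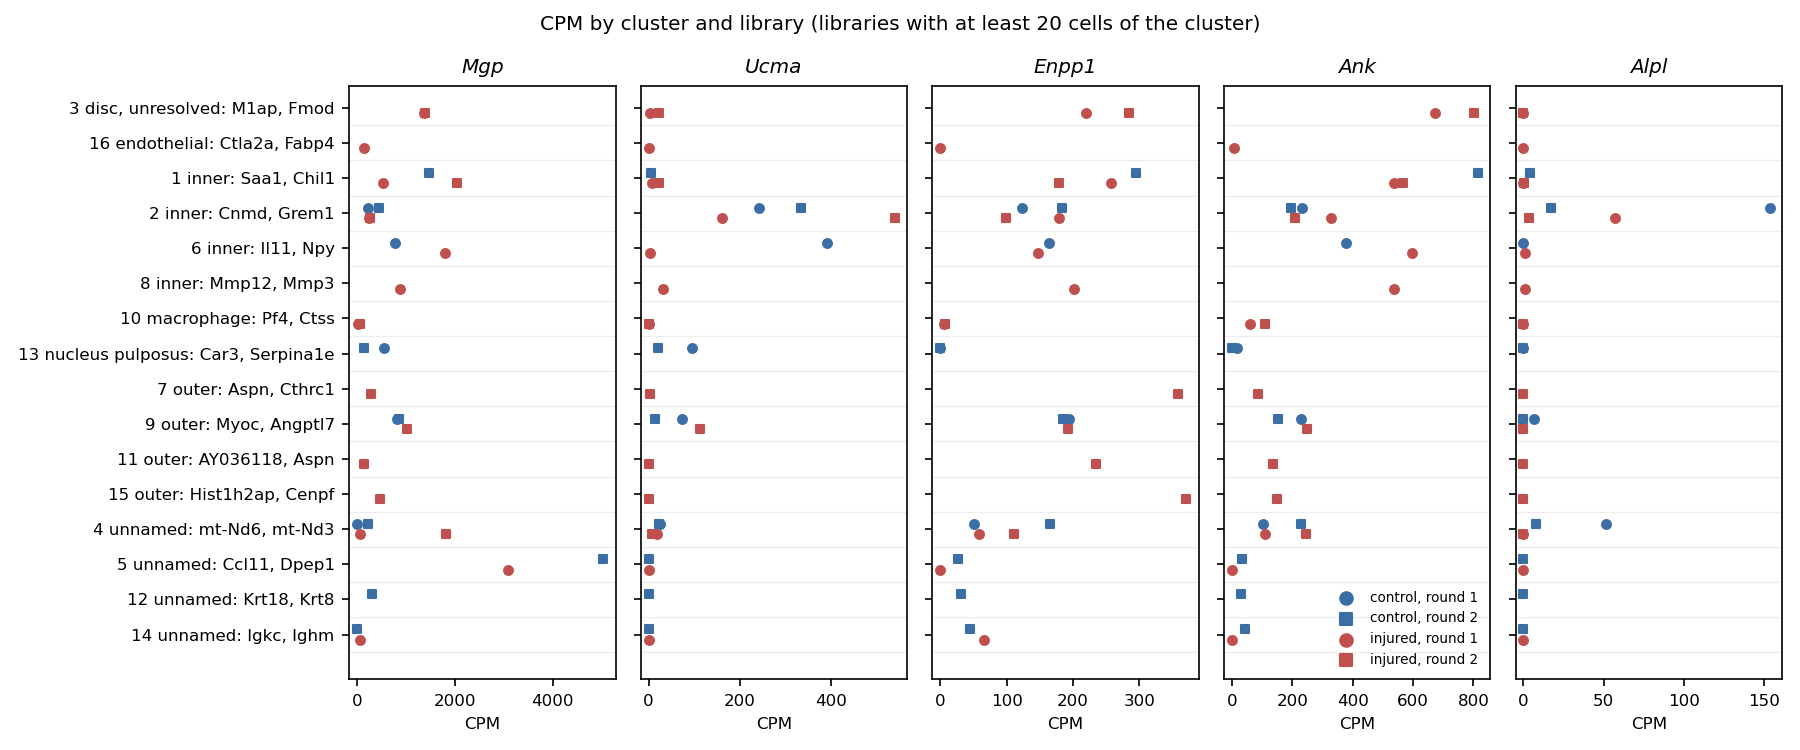
CPM of each member by cluster (rows, with class and 2 leading genes), for libraries with at least 20 cells of the cluster; blue is control, red injured, circles round 1 and squares round 2. Ucma and Alpl are high in cluster 2 (the Ucma point of control round 1 in cluster 6, at 391 CPM, is mostly 1 cell), Ank in clusters 1, 3, 6 and 8, Enpp1 in clusters 7 and 15, and Mgp in the unnamed cluster 5. Mural-like cells (under 20 per library) are not drawn.

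The share of cells with at least 1 UMI depends on depth, so cells were thinned to 500 UMIs. At that depth 4.04% and 10.0% of control disc cells held Ucma against 1.74% and 1.91% of injured ones. The groups did not overlap, but the 95% intervals of round 1 did (2.04 to 7.12 and 0.80 to 3.27). Ank was held by 11.03% and 7.59% of control against 24.7% and 18.2% of injured disc cells, without overlap. Mgp was held by 18.8% and 10.8% against 20.8% and 21.9%, with control and injured cells of round 1 within each other's 95% intervals (14.3 to 23.9 and 17.4 to 24.6). At 1000 UMIs, which leaves fewer cells, the round 1 intervals were apart for Mgp (16.0%, 10.8 to 22.4, against 32.1%, 28.1 to 36.3) and for Ucma (14.2%, 9.32 to 20.4, against 2.53%, 1.35 to 4.29). Without shared barcodes the control shares of round 1 at 500 UMIs were 13.4% for Mgp, 5.81% for Ucma and 6.98% for Ank. At 1000 UMIs they were 14.2%, 15.5% and 11.6%. For Enpp1 the shares were 6.25% and 7.59% against 7.92% and 10.5%. Alpl was held by 6 of 272 and 3 of 369 control cells and by 0 of 518 and 0 of 1519 injured cells, which allows shares of cells with an Alpl UMI at 500 UMIs of up to 0.579% and 0.197% by the limit of 3 counts, or 0.710% and 0.243% as upper Clopper-Pearson bounds. At full depth 6 of 523 and 3 of 1548 injured disc cells held one, against 21 of 272 and 14 of 378 control cells, so these limits are not limits on cells that express Alpl. In macrophage-like cells thinned to 500 UMIs, 3.10% held Mgp, 4.65% held Ank, and 0 of 129 held Ucma, Enpp1 or Alpl. Before thinning, the injured shares of Mgp, Enpp1 and Ank were higher by 22.7, 27.3 and 34.9 percentage points, and injured cells also held more UMIs.

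Related genes were counted in 5 lists, 47 genes with the members, of which 30 passed the filter in disc cells. Without the block 0 of 30 were called, with a median log2 difference of 0.57 where the median of all genes was -0.01. With the block, 2 were called higher and 3 lower of 30, with a median of 0.63, where 4.13% of all genes were called. Besides members, these were Nt5e, the ectonucleotidase CD73 that makes adenosine, and Ibsp. Nt5e was at 121 and 167 CPM in control against 333 and 278 CPM in injured (1.15 ± 0.27, edgeR with the block, adjusted p 0.0392, and 1.19 with an adjusted p of 0.0829 without shared barcodes). Ibsp was at 701 and 42.7 CPM in control against 20.3 and 7.99 CPM in injured (-3.81 ± 0.56, edgeR with the block, adjusted p 0.00352). Within cluster 2, Ibsp was at 1174 and 47.7 CPM against 7.16 and 18.2 CPM, and control round 1 stood far above the other 3 libraries.

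By list, 11 of 14 pyrophosphate and phosphate genes were tested in disc cells and, with the block, 1 was called higher (Nt5e) and 1 lower (Alpl). Of 10 Gla protein and vitamin K cycle genes 7 were tested, with Mgp called higher and Ucma lower. Of 14 bone matrix and mineralizing chondrocyte genes 7 were tested, with Ibsp called lower. None of the 2 tested of 6 other secreted inhibitors, and none of the 3 matrix vesicle annexins, passed in disc cells. With the block in the inner class, 6 of 30 list genes were called higher (Mgp, Ank, Enpp3, Nt5e, Slc29a1 and Tnfrsf11b) and 4 lower (Ucma, Alpl, Gas6 and Ibsp), where 8.4% of all genes were called. In the outer class 3 of 23 were called higher (Col10a1, Anxa2 and Anxa6) and 2 lower (Mgp and Spp1), where 10.4% were. Without the block 0 of 30 list genes were called in the inner class and 0 of 23 in the outer class. The inner-class call of Ank was also lost without shared barcodes, as given above.

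Across 17 clusters of at least 30 cells, the genes whose log2 levels most resembled each member were found among 13402 genes. Ucma was nearest to Nog (Pearson r = 0.88), Cytl1 and Fam160a1, and Alpl to Sfrp5 (r = 0.98), Gcg and Tnr. Enpp1 was nearest to Lox (r = 0.96), Steap2 and Slc1a4, Ank to Prdx5 (r = 0.94), Gm41724 and Plod2, and Mgp to Hoxb2 (r = 0.87), Ugdh and Ntrk2. Among the members, Enpp1 and Ank were closest (r = 0.80), followed by Ucma and Alpl (r = 0.65). Mgp had r from -0.09 to 0.27 with the other 4. Clusters share libraries and differ in depth, so these are descriptions. In single disc cells, 23 held both Ucma and Alpl where 6.94 would if the 2 were unrelated, but inside cluster 2 the 2 numbers were 21 and 20.6. Mgp and Alpl were together in 3 cells of cluster 2, where 8.85 would be if unrelated.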

How the data were processed

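Single-cell RNA was measured in 4 pooled libraries. The deposited counts are UMI counts per gene and barcode, which Cell Ranger produced on mm10, per the labels; per the file headers version 6.0.0 was used for control round 1 and version 4 for the others. The values were not normalized. Barcodes with at least 250 genes were kept, and genes seen in at least 5 cells. No doublets were removed in the reported values. Clusters (scanpy 1.11.5, Leiden resolution 1, 2000 variable genes, 30 components) left out 47 mineralization genes and were named from marker lists; rebuilt names can differ from those of the authors. Clusters 4, 5, 12, 14 and 18 had under 3 markers or, among their control round 1 cells, mostly barcodes with similar UMIs in injured round 1.

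Counts were summed per library and population and tested by quasi-likelihood in edgeR 4.0.16 (two-sided, TMM, its default filter on low counts) with Benjamini-Hochberg adjustment over all genes tested, called at an adjusted p under 0.05; an SE is the log2 change divided by the square root of F. Control and injured discs came from the same animals per the labels, so the round pairs the libraries; deviations from group means in round 1 correlated at r = 0.463 between control and injured disc cells over 11212 genes, and the test with the round as a block was the paired alternative. Whether each round had its own mice is not stated, so p-values measure the spread between these libraries. DESeq2 1.42.0 and other settings were alternatives. Intervals (exact Poisson for CPM, Clopper-Pearson for shares, both 95%) and the limit of 3 counts for a share of 0 cover counting error only. Named genes were the 5 members, list genes called in disc cells with or without the block, and the 3 genes most like each member over clusters (log2 of CPM plus 10). The members and lists were chosen with earlier results of these data known. Genes named beyond the rule were chosen after their values were seen. They include Spp1, Sp7, Bglap, Runx2, Mmp13, Col10a1, Fam20c, Pth1r, Phex and Dmp1 beside Alpl, and list genes called in a single class. No promoter of Mgp was matched among the RefSeq starts used here.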

Additional observations from a re-analysis of the deposited data

Results flagged for a closer look

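Mgp was picked out because its change with injury differed between the outer and the inner class by -3.30 on the log2 scale (edgeR interaction term, adjusted p 0.0134). The other values were picked out because the 2 rounds moved in opposite directions, which was not tested. They are differences of the log2 ratio of injured to control CPM, round 2 minus round 1. In cluster 2 they were -0.83 for Mgp (0.10 in round 1 and -0.73 in round 2), 1.28 for Ucma (-0.59 and 0.69) and -1.43 for Enpp1 (0.54 and -0.89). In the inner class Enpp1 differed by -0.82 (0.56 and -0.27). In the outer class Ucma differed by -1.72 (0.63 and -1.09) and Ank by -0.56 (0.20 and -0.37). The opposite signs of Ucma there rested on 1 cell, which held 24 of the 35 outer-class UMIs of injured round 1.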

How the results depend on the processing

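Of the members' changes with injury, 0 reversed over all cells and over disc cells under the alternatives run. Values here are log2 differences. The calls depended on the paired fit and the tool. With the replicate block, calls appeared that the unpaired fit did not make: over all cells Ucma -2.42, Alpl -4.64 and Ank 1.09; in disc cells Mgp 1.22, Ucma -2.53 and Alpl -4.74; in the inner class Mgp 2.03, Ucma -2.55, Ank 1.03 and Alpl -4.70; in the outer class Mgp -1.28. Of all genes, 6.14%, 4.13%, 8.4% and 10.4% were called with the block in all, disc, inner and outer cells. With the replicate block and without shared barcodes, Ucma -2.52 and Alpl -4.78 (all cells), Ucma -2.59 and Alpl -4.84 (disc), Mgp 2.24, Ucma -2.61 and Alpl -4.83 (inner) and Mgp -1.29 (outer) were called. There 2.04%, 2.14%, 3.64% and 10.6% of all genes were called in the same order of populations. DESeq2 called Ucma (-2.43, -2.53 and -2.44 in all, disc and inner cells) and Mgp in the inner class (2.03). It called 1.51%, 1.08% and 0.913% of all genes in all, disc and inner cells. With no filter on low counts, Ucma (-2.29, -2.40 and -2.31), Alpl (-4.60, -4.66 and -4.56), Mgp in the inner class (2.15), Ucma between classes (-1.38) and its interaction (2.20) were called, where 1.76%, 1.47% and 1.02% of all genes were called in all, disc and inner cells, 9.31% between classes and 0.639% for the interaction. With classes by marker score, Ucma between classes was called at -3.35, where 13.3% of all genes were.

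Values that reversed or lost a call were these. In cluster 2 alone, an alternative added after seeing the data, Mgp was -0.36, Ucma 0.35 and Enpp1 -0.13, and with the replicate block -0.29, 0.14 and -0.13. In the outer class Ucma was 0.054 with DESeq2 and 0.068 with no filter, and Ank was 0.78 with classes by marker score and 0.75 at resolution 0.5. Between classes, Mgp was 0.0018 and Ank -0.49 at resolution 0.5, and with marker scores Enpp1 was -0.024. The Mgp interaction lost its call at -1.26 with marker scores and at -3.15 under 10% mitochondrial UMIs. The cause was not tested.

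Leaving out 1 library at a time, the ranges were -2.68 to -2.18 for Ucma and -6.68 to -2.30 for Alpl over all cells, and -2.75 to -2.32 and -7.15 to -2.37 in disc cells. In the inner class they were 1.45 to 2.66 for Mgp, -3.18 to -1.93 for Ucma, -6.38 to -2.38 for Alpl and -0.058 to 0.60 for Enpp1, and in the outer class -1.43 to 0.92 for Ucma and -0.47 to 0.20 for Ank. Between classes they were -1.09 to 0.53 for Mgp, -2.24 to -0.82 for Ucma and -1.54 to -0.83 for Ank, and for the Ucma interaction 0.50 to 4.20. Where an arm had 1 library it was assumed to vary like the others.

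Injured minus control shares of disc cells at 1000 UMIs and without thinning, in percentage points, were 14.8 and 22.7 for Mgp, -10.8 and -16.0 for Ucma, 6.17 and 27.3 for Enpp1, 16.7 and 34.9 for Ank, and -3.41 and -5.04 for Alpl. Depth limits Alpl, with 133 UMIs in 3846 cells.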
